A study of Homo sapiens with 2 samples.

Results

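RORA and 8 further genes of the circadian clock, NR1D1, NR1D2, CLOCK, PER1, PER2, PER3, CRY1 and CRY2, were followed in AGS, a gastric adenocarcinoma cell line, with and without overexpression of WTX (AMER1), a tumour suppressor encoded on the X chromosome. The group was chosen by the measured differences between the 2 arrays, in which RORA stood out, together with its known partners in the clock, so the differences below are a description and carry no test. Both lines were stable lines made by lentiviral infection and puromycin selection. AGS.W carried a vector with the WTX coding region and AGS.veh the control vector, and RNA of each was hybridised to 1 Affymetrix U133 Plus 2.0 array. Neither line had a replicate array, so no standard error or p-value could be computed. The sources used here give no hour of harvest and no synchronisation of the cultures, and clock transcripts vary with the time of day.

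A probe set is a group of short probes that together read a transcript, and a gene can have several. A probe set was counted for a gene only where the platform annotation assigned it to that gene alone. By this rule 22 probe sets read 7 of the 9 genes, of 19775 genes read on the arrays in all. PER1 and NR1D1 had no probe set of their own, because the annotation lists theirs together with MIR6883 and THRA, and these shared probe sets are described apart. Values are log2 signals as deposited, and each difference is AGS.W minus AGS.veh on the log2 scale. The median log2 signal over 54613 probe sets was 4.02 in AGS.W against 4.03 in AGS.veh. A signal under this median may be background. Levels of different probe sets are not read as amounts of different transcripts, since their brightness depends on the probes. They were used to rank signals, to pick a gene's brightest probe set, in sums over markers and to find genes near RORA.

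The labels describe the RNA extract as one of brain cortex, while their other fields name AGS. KRT8 and KRT18, keratins of simple epithelia, were bright in AGS.W, at 9.76 and 10.87, and in AGS.veh, at 10.13 and 11.17. EPCAM, an epithelial adhesion gene, had 6.88 in AGS.W against 5.96. Of all 17 gastric and epithelial markers, 12 reached the median on either array and none was 2-fold apart, while KRT19, TFF1, CLDN18, LGALS4 and CDH17 lay under it on both. The log2 of their summed signal was 11.68 in AGS.W, against 11.94. GFAP and S100B, markers of astrocytes, were under the median on both arrays, GFAP at 3.44 in AGS.W against 2.97 and S100B at 2.89 against 2.56. Of 14 measured markers of astrocytes and oligodendrocytes, 8 reached the median on either array and none was 2-fold apart. The log2 of their summed signal was 8.74 in AGS.W, against 8.72. Of 19 neuron markers, 9 reached the median and 2 were at least 2-fold higher in AGS.W, ENO2 with a difference of 2.91 and SNAP25, under the median in AGS.veh, with 1.58. The log2 of the summed neuron signal was 11.15 in AGS.W, against 10.56, and ENO2 made up this shift, since without it the other 18 markers summed to 10.44 on both arrays. The probe set of WTX itself was dim on both arrays, with 3.70 in AGS.W against 3.86. Its place relative to the coding region in the vector is unknown here, and it therefore cannot check which line is which.

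The circadian clock is a loop of transcription. CLOCK pairs with BMAL1 and activates genes through E-boxes, among them the PER and CRY genes, whose proteins return to the nucleus and repress that pair. In a second loop, nuclear receptors of the ROR family activate and the REV-ERB receptors NR1D1 and NR1D2 repress BMAL1 through shared ROR elements. A further element, the D-box, is bound by the activators DBP, TEF and HLF and by the repressor NFIL3.

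The sequences below show which of these elements lie in the 250 bases before the annotated starts of the genes, since such elements are the letters that these factors are known to bind. They are from RefSeq, build GRCh38.p14, which holds 13 start sites for the 9 genes. Each is written along the strand of its gene with 11 bases on either side of the match, and capitals mark the match. Of the E-box CACGTG, matches were found for PER1 and NR1D2, the latter with 2.
PER1 at chr17:8152561-8152588, minus strand: gcacccaggtcCACGTGcgcccgtgtgt
NR1D2 at chr3:23945955-23945982, plus strand: gcgggcggggaCACGTGaggccgctcgg
NR1D2 at chr3:23946005-23946032, plus strand: ggccgcagggaCACGTGggggcgggggc
The variant E'-box, CACGTT, was found for NR1D1, CLOCK, PER2, CRY1 and CRY2, and reads AACGTG where it lies on the opposite strand.
NR1D1 at chr17:40100741-40100768, minus strand: cgcaagagctcAACGTGccggctgttgg
PER2 at chr2:238288791-238288818, minus strand: gcgcgcgcggtCACGTTttccactatgt
CRY1 at chr12:107093622-107093649, minus strand: cacacttcagaAACGTGaggtgccggtg
A D-box, TTATGNAA, was found for PER1, PER3 and NR1D2.
PER1 at chr17:8152416-8152445, minus strand: agtgcccggcaTTATGCAAcccgcctcccc
PER3 at chr1:7784103-7784132, plus strand: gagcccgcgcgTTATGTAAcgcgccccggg
The core of the ROR element, TAGGTCA, was found for CRY2 alone among the 9 genes.
CRY2 at chr11:45847399-45847427, plus strand: ttgcggcgtcaTAGGTCActgggcgggct
Searched on both strands, these letters were held by 6.34% of 35116 promoter windows for the E-box, 4.55% for the E'-box, 3.03% for the D-box and 1.61% for the ROR core. The cAMP response element TGACGT, in 7.1% of windows, was found for NR1D2. No 2 matches in the windows of these genes overlap. The letters of these 5 motifs are not in the windows of RORA. A match is a description of letters and not a measured site.

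RORA, a nuclear receptor that activates transcription through ROR elements, was higher in AGS.W. On its brightest probe set, 210426_x_at, AGS.W had a log2 signal of 6.26 and AGS.veh 2.94, a difference of 3.32. In AGS.W this signal was brighter than 79.5% of all probe sets, and in AGS.veh than 29.2%. Since the AGS.veh signal lay under the array median, the fold is given as a bound. Taking that median in place of the dimmer signal, this probe set was at least 4.70-fold higher in AGS.W. With a single array of each line, the bound has no estimate of error.

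The other probe sets of RORA had graded differences. Split by the median, 3 reached it in AGS.W alone, like the brightest, and 4 stayed under it on both arrays. Probe set 210479_s_at had 5.61 in AGS.W and 3.14 in AGS.veh, a difference of 2.48. Probe set 226682_at had 5.65 and 3.19, a difference of 2.46. Probe set 236266_at had 5.0 and 3.72, a difference of 1.28. Like the brightest, these were above the median in AGS.W and under it in AGS.veh. With the dimmer signal at the median they were at least 3.01-fold, 3.09-fold and 1.97-fold higher in AGS.W, in the same order. The remaining 4 probe sets of RORA lay under the median on both arrays. Of these, 235567_at had 3.33 and 2.34, a difference of 0.99. The other 3 had differences between -0.02 and 0.16, one of them with identical values on both arrays. As the mean over all 8 probe sets, dim ones included, RORA had a difference of 1.33. Over the 4 probe sets that reached the median, RORA had 2.38. They reached it in AGS.W alone, and the 4 left out had lower differences, so this choice favours a high value. With the _x_at and _s_at types left out, which can match several transcripts, the value of RORA was 2.46. Which transcript forms of RORA the probe sets read was not analysed here.

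The whole array gives the background to these 4 probe sets. Of 27301 probe sets under the median in AGS.veh, 107, or 0.392%, were at the median or above and at least 2-fold higher in AGS.W, and 4 of these 107 belong to RORA. Of 2728 genes with at least 4 probe sets of their own, 6 had at least 4 that were 2-fold higher, and RORA was among them with ITPR1, MALAT1, PDE4D, PGK1 and RIMKLB. These counts came from the differences that chose RORA and support nothing about it.

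**Figure D1:**
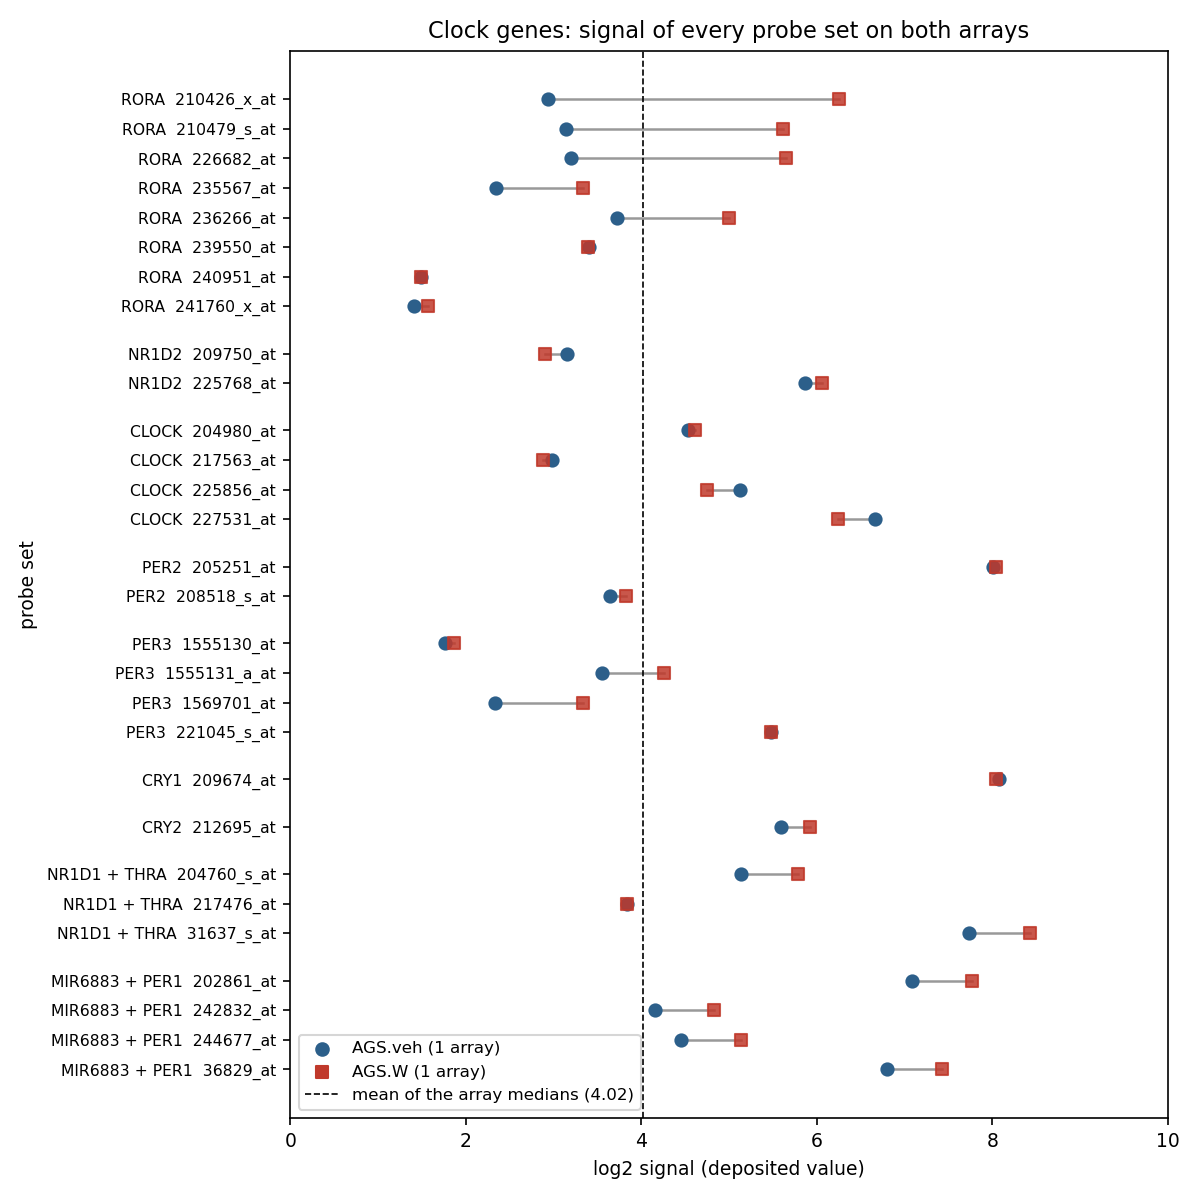
Log2 signal (horizontal axis) of each probe set, shared ones under 2 gene names, with blue circles for the AGS.veh array, red squares for the AGS.W array and a dashed line at the mean of the array medians. RORA has 4 probe sets that run from under the median in AGS.veh to above it in AGS.W, with a largest difference of 3.32, whereas that of CRY1 and the brighter of PER2 lie above it on both arrays with nearly equal signals.

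Of the 7 genes read by their own probe sets, RORA alone was at least 2-fold apart on its brightest probe set. Among 12811 genes at or above the array median in either line, 3.78% were 2-fold or more apart, of which 1.83% were higher and 1.94% lower in AGS.W as shares of all. All 7 genes were among them, with 4 higher by any amount, as 45.7% of all such genes were, and a median difference of 0.04 beside -0.01 for all such genes. Counted as probe sets, 5 of the 22 were at least 2-fold higher and none was 2-fold lower, where the shares over all probe sets were 1.07% and 1.12%. RORA held 4 of these 5 and PER3 the other, and no meaning is read from the counts. For scale, differences of the 1000 probe sets nearest in mean signal had a robust spread (scaled median absolute deviation) of between 0.26 and 0.39 around these probe sets, which mixes noise with true differences between the lines.

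CLOCK, the activating subunit named above, had slightly lower signals in AGS.W on 3 of its 4 probe sets. The brightest, 227531_at, had 6.24 in AGS.W and 6.67 in AGS.veh, a difference of -0.43 where the local spread was 0.36. Probe set 225856_at had 4.75 and 5.12, a difference of -0.37. The others had 0.07 and, under the median on both arrays, -0.10. None of them was 2-fold apart.

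NR1D2 (REV-ERB beta), which represses through the elements that RORA uses, had 6.06 in AGS.W and 5.86 in AGS.veh on its bright probe set, 225768_at. This difference of 0.19 was smaller than the local spread of 0.37. Its other probe set, under the median on both arrays, had 2.90 and 3.15, so the mean of both was -0.03 and the direction of NR1D2 depends on the probe set.

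The PER genes encode repressors of CLOCK and BMAL1. PER2 had 8.05 in AGS.W and 8.01 in AGS.veh on 205251_at, brighter than 92.4% and 92.2% of probe sets, and a dim one had a difference of 0.19. Probe set 205251_at thus lay well above the median on both arrays, and its difference was 0.04 beside a local spread of 0.38. The probe sets of PER3 diverged. The brightest, 221045_s_at, had the same value, 5.48, on both arrays, as did 12.6% of all probe sets. Probe set 1555131_a_at had 4.26 in AGS.W and 3.55 in AGS.veh, a difference of 0.70, and 1569701_at had 3.34 and 2.33, a difference of 1.01. The latter lay under the median on both arrays, and no fold is given for it. The last probe set of PER3, also dim, had a difference of 0.11. The AGS.veh signal of 1555131_a_at was also under the median, and with the median in its place it was at least 1.17-fold higher in AGS.W. The mean over the 4 probe sets of PER3 was 0.45, against 0 on the brightest, so its value depends on the probe set and partly on signals that may be background.

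The CRY genes, partners of the PER proteins in repression, were read by 1 probe set each. CRY1 had 8.05 in AGS.W and 8.08 in AGS.veh, a difference of -0.03. CRY2 had 5.93 and 5.59, a difference of 0.34 beside a local spread of 0.39. Neither difference exceeded the spread at its signal level.

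The annotation lists 4 probe sets with PER1 and MIR6883 together, and they gave 4 nearly equal differences. Probe set 202861_at had 7.77 in AGS.W and 7.08 in AGS.veh, a difference of 0.69, and 36829_at had 7.42 and 6.79, a difference of 0.63. The dimmer 244677_at had 5.14 and 4.45, and 242832_at had 4.82 and 4.16, with differences of 0.69 and 0.67. All 4 lay above the median on both arrays and were higher in AGS.W by less than 2-fold. Over all probe sets, whatever their signal, 6.47% differed by more in size than 202861_at. The annotation assigns none of these to PER1 alone, and the share of MIR6883 in their signal was not tested.

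Of 3 probe sets listed with both NR1D1 (REV-ERB alpha) and THRA, a thyroid hormone receptor, the brightest, 31637_s_at, had 8.42 in AGS.W and 7.74 in AGS.veh, a difference of 0.69. Probe set 204760_s_at had 5.78 and 5.13, a difference of 0.65. The third, 217476_at, had the same value, 3.84, on both arrays. THRA has 4 further probe sets of its own, with differences between 0.13 and 0.25, values looked up after those of the shared probe sets were seen. What share of the shared signal is NR1D1 was not tested.

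**Figure D2:**
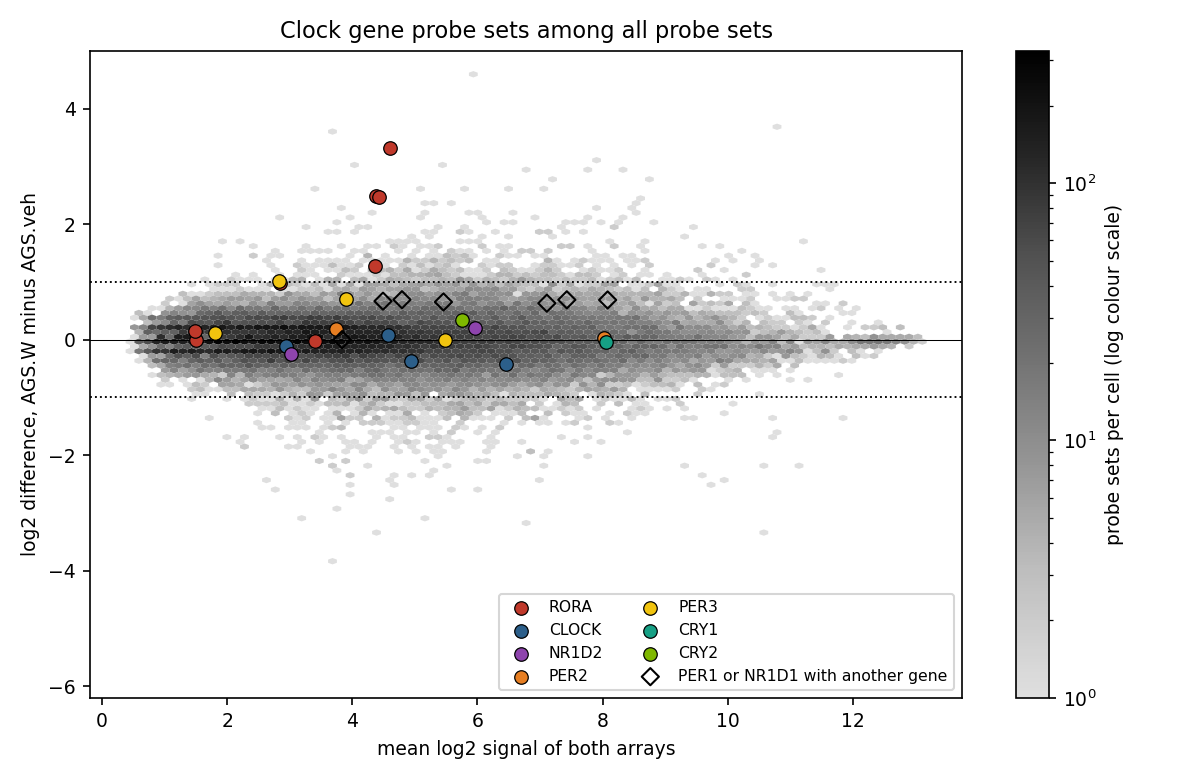
Log2 difference AGS.W minus AGS.veh (vertical axis) against the mean log2 signal of both arrays (horizontal axis) for all probe sets, shown as grey cells by their number on a log colour scale, with clock gene probe sets as coloured circles, shared ones as diamonds and dotted lines at 2-fold. The bright probe sets of RORA stand above the cloud at 1.28 to 3.32, PER3 reaches 1.01 at low signal, and the PER1 and NR1D1 probe sets shared with another gene, apart from 1 of them at 0, lie between 0.63 and 0.69.

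The other genes of the activating arm were lower in AGS.W, all by less than 2-fold. BMAL1, the partner of CLOCK, had 6.77 in AGS.W and 7.32 in AGS.veh, a difference of -0.54, and -0.32 on its other probe set. NPAS2, a paralogue of CLOCK that also pairs with BMAL1, had 5.55 and 6.43, a difference of -0.88, and between -0.54 and 0.00 on its other 4 probe sets. BMAL2 had 5.28 and 5.54, with differences between -0.26 and -0.16 on its 3 probe sets. Over CLOCK and these 3 genes, 12 of 14 probe sets were lower, 1 was higher and 1 was identical, with a median of -0.29. Of all probe sets, 42.9% were lower by any amount. Among probe sets at the median on either array, 11 of 13 of these were lower, beside 49.1% of all such probe sets. Probe sets of a gene are not replicates, so the count is no test.

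Among the clock outputs and feedback repressors, 14 of 16 listed genes reached the median. By 2-fold or more, 2 of these were higher and none was lower, beside 1.83% and 1.94% of all genes at the median. Their median difference was -0.02, and no meaning is read from the counts. DBP, a D-box activator and a direct target of CLOCK and BMAL1, had 5.21 in AGS.W and 3.74 in AGS.veh, a difference of 1.46. The AGS.veh signal was under the median, and a further, dim probe set of DBP had 3.81 on both arrays. NFIL3, which represses through the same D-boxes, had 8.05 and 6.91, a difference of 1.14. BHLHE40, a repressor that binds E-boxes, had 10.26 and 9.67 on its brightest probe set, a difference of 0.59, and 6.68 and 4.79 on the other, a difference of 1.90. Its relative BHLHE41 had 0.23. TEF had the same value on both arrays, 5.37, and HLF and CIART, at 0.11 and 0.48, lay under the median on both. Of the genes of D-box factors that reached the median, DBP and NFIL3 were thus higher and TEF was equal on its brightest probe set.

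The proteins that modify or degrade PER and CRY, casein kinases and ubiquitin ligases among them, held no gene 2-fold apart. Among all genes at the median, 3.78% were 2-fold or more apart. Of 17 measured genes, 16 reached the median, with a median difference of -0.06 and a range from -0.60 to 0.88. The upper end was PRKAA2, a catalytic subunit of the kinase AMPK. Of cofactors of ROR and REV-ERB receptors, 13 of 16 listed genes were measured and none was 2-fold apart, with a median of 0.03. Their ends were PPARGC1B, a coactivator, at -0.94 and TBL1XR1, a subunit of the corepressor complex, at 0.83.

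Genes described as regulated through ROR elements were a mixed group. Of 30 listed, 17 reached the median, with 3 higher and 1 lower by 2-fold or more, beside 1.83% and 1.94% of all genes at the median, and a median difference of 0.16. PCK1, an enzyme of gluconeogenesis, had 8.20 in AGS.W against 3.60, under the median. ITPR1, a calcium channel of the endoplasmic reticulum, had 9.70 and 7.38, and 4 of its 5 probe sets had differences between 2.29 and 2.64, the lowest of them with an AGS.veh signal under the median. NFIL3 was the third, and HMOX1, a haem-degrading enzyme, had 6.0 in AGS.W against 8.20. The list was written with the differences of PCK1, ITPR1 and HMOX1 known, so their count supports nothing. BMAL1 and NPAS2, the clock genes most directly tied to RORA in the second loop, were lower as given above. E2F8, at -0.02, and FGF21, at 0.09, hardly differed. PPARGC1A, SREBF1 and LPIN1 were higher on their brightest probe sets, at 0.55, 0.53 and 0.49. PPARGC1A and SREBF1 each also had a lower probe set, at -0.20 and -0.13. By any amount, 11 of the 17 were higher and 6 lower, where 45.7% of all genes at the median were higher. G6PC1, CYP7A1 and the apolipoprotein gene APOA1 lay under the median on both arrays.

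RORB, the relative of RORA, lay under the median on both arrays on all 3 of its probe sets, with 3.05 in AGS.W against 2.83 on the brightest. Among 45 other nuclear receptors listed, 37 were measured and 24 reached the median, with 2 higher and 1 lower by 2-fold or more and a median difference of 0.11. NR2F1 had 8.56 in AGS.W and 7.17 in AGS.veh, a difference of 1.38. NR4A2, an orphan receptor induced as an immediate early gene, had 7.88 and 6.72, a difference of 1.16. VDR, the vitamin D receptor, had 7.70 and 8.82, a difference of -1.12, and its probe sets averaged -0.78. Over all lists beside the 9 clock genes, 6 of 80 genes that reached the median were higher and 2 were lower by 2-fold or more, with a median difference of 0.02. Of all genes at the median, 1.83% were higher and 1.94% lower to that extent, and the lists were chosen with earlier results known.

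**Figure D3:**
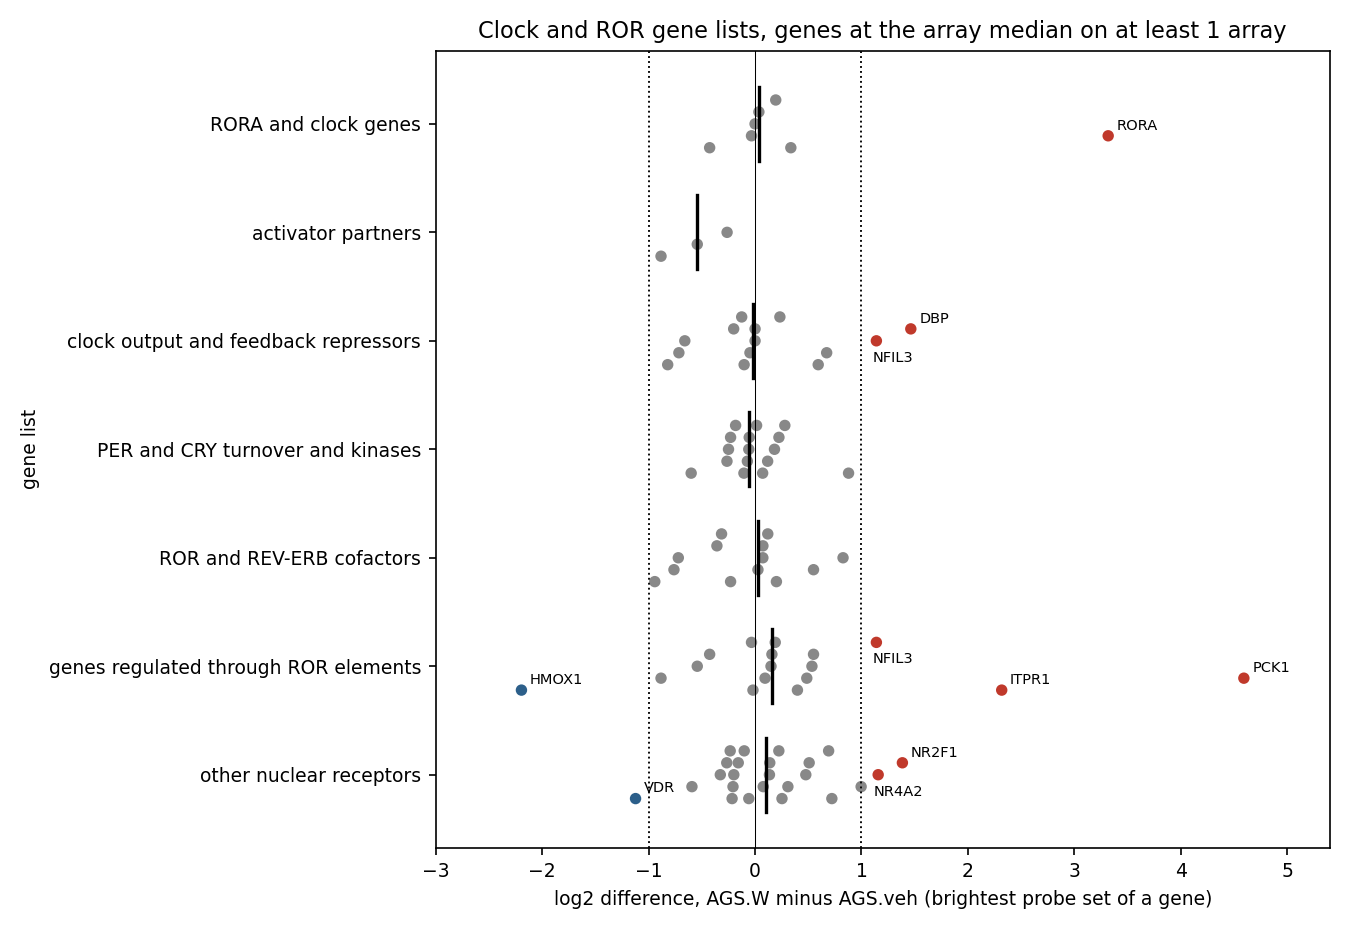
Log2 difference AGS.W minus AGS.veh (horizontal axis) of each gene at or above the array median in either line, on its brightest probe set, by gene list (rows), with black bars at the list medians, dotted lines at 2-fold and names on the coloured points past them. RORA stands at 3.32 while the 6 other clock genes lie between -0.43 and 0.34, and the activator partners (BMAL1, BMAL2 and NPAS2) lie between -0.88 and -0.26.

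The genes whose pair of signals lay nearest to that of RORA were found by the Euclidean distance over the 2 arrays, which also depends on brightness and, with 2 arrays, is a weak measure of likeness. SERPINI1, a neuronal serpin, was nearest at 0.86, with 5.50 in AGS.W against 2.52. MGAT4A, a glycosyltransferase, followed at 1.09, with 6.18 and 4.02. INHBE, an inhibin subunit, lay at 1.13, ARRDC4, an arrestin-domain gene, at 1.21 and FBXO32, a ubiquitin ligase subunit, also at 1.21. In AGS.veh all of these but FBXO32 lay under the array median.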

How the data were processed

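The authors deposited log2 signals per probe set for 1 array of each line, with nearly equal quartiles, so normalized between arrays. The labels list MAS5 and RMA. Not given in the sources used here were what each did, its version and the background correction. After 62 control probe sets were left out, log2 differences were computed for 54613 probe sets. Annotation of the platform assigned 41091 to 1 gene and 1801 to several, and symbols were updated through RefSeq of GRCh38.p14. A gene took its probe set of highest mean signal. Fold 2 was the threshold, as in the study's methods, whose FDR needs replicates. The members and lists were chosen with earlier results of these data known. Named were all members with every probe set, clock outputs and partners, list genes at least 2-fold apart and the 5 genes nearest to RORA. ENO2, SNAP25, THRA, list ends and other genes were added after their values were seen. The promoter motifs were chosen after the sequences were seen. Functions were tested on simulated arrays in which all probe sets of a shifted gene moved alike, unlike those of RORA. That test checks the code and not the measured differences. Tools were statsmodels 0.14.6, pandas 2.3.3, matplotlib 3.10.9 and numpy 2.4.6 in Python 3.11.15. Alternatives were other scalings, an offset, other signal filters, fold thresholds and probe set summaries. Precision is limited by the number of arrays.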

Additional observations from a re-analysis of the deposited data

How the results depend on the processing

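No paired analysis was possible because a single array was made of each line, so leaving out a replicate was not possible either. Moves were set against the local spread around a probe set. The difference of RORA, 3.32, stayed within it under median centring, quantile normalization and a lowess curve. It was 1.97 with an offset of 16 on the linear scale, 1.33 as the mean of all probe sets and 2.46 without _x_at and _s_at types. Under an alternative added after the data were seen, it was 2.23 with the dimmer signal at the array median. Under another, also added then, it was 2.38 as the mean of probe sets reaching the median. These probe sets reached it in AGS.W alone, so this choice favours a high value. With the median required on both arrays, 0 clock genes and 0 of their probe sets were 2-fold apart, RORA failing this filter in AGS.veh. The 5 probe sets became 3 with the offset, 3 of the 17 left without these types and 3 at 3-fold. The 8 other network genes became 4 without these types, 24 at 1.5-fold and 3 at 3-fold. Without these types, 60 network genes were left at the median, against 80. NR4A2, VDR and PCK1 have no probe set of another type, so their loss was fixed in advance. The remaining probe set of DBP lay under the median on both arrays. Of 50 alternative values for the other members, 49 stayed within that spread. The exception was PER3 at 0.70 without these types. Part of the 49 could not move, so the count is no measure of robustness. The signal filters left the value of each of these genes unchanged. CRY1 and CRY2 have 1 probe set each, which every summary repeats. Not counted among the 50, as the signal filter gave no value, was PER3 under the mean of its probe sets, 0.45. Nor were NR1D2, PER2 and PER3 under the probe set of largest difference, where they had -0.25, 0.19 and 1.01. Signals under the median limit what can be said of RORA in AGS.veh.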
